A study of Gallus gallus with 12 samples.

Results

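The sex difference of chicken gonadal primordial germ cells (gPGCs) at embryonic day 4.5 (E4.5) was measured gene by gene, as female minus male within same-numbered pools of cells. Genes were included when their chromosome was not W and their level reached 1 TPM (reads per gene length, scaled so that every library has the same sum) in at least 2 of the 4 E4.5 libraries. This rule kept 12204 of the 24356 genes in the table, 584 of them on the Z chromosome and 11620 on autosomes. The rule would keep 12352 genes at E2.5 and 12001 genes in the E6.5 libraries.

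The study profiled primordial germ cells (PGCs) of both sexes by RNA-seq to look for early signs of sex determination in the germline. Cells positive for SSEA-1, a carbohydrate antigen on the surface of early chicken PGCs, were sorted from E2.5 blood and from E4.5 and E6.5 gonads. The groups compared here are 2 pools of ZZ (male) gPGCs and 2 pools of ZW (female) gPGCs from E4.5 gonads, for which the labels name no treatment. Each pool held cells of 6 to 14 embryos, so that the libraries average over embryos and say nothing of single animals, and a cell without SSEA-1 at its surface is not represented. Nothing in the labels says that male pool 1 and female pool 1, or the second pools, were sorted or prepared together. The pair of first pools is called pair 1 and the pair of second pools pair 2.

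In birds the male carries ZZ and the female ZW, and most Z-linked genes are not equalized between the sexes as X-linked genes are in mammals. A Z-linked gene is therefore commonly expressed at a higher level in the male. PGCs reach the chicken gonad through the blood, and at E4.5 they have recently settled in a gonad that is not yet visibly male or female. *DMRT1*, a Z-linked transcription factor gene, acts in the later choice of the somatic gonad between testis and ovary.

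The libraries matched their labels. Reads on genes numbered 7566925 and 11110477 in the male pools and 7185031 and 11591522 in the female pools, and between 10973 and 12475 genes per library reached 1 TPM. The summed level of W-linked genes was 14.4 and 16.2 TPM in the male pools against 4026 and 3430 TPM in the female pools. Of 15 PGC markers, 14 were in the table and all 14 passed the filter, with summed levels of 3611 to 4236 TPM. The markers of other cells were much lower: the summed levels ran from 7.74 to 25.4 TPM for gonadal somatic cells, from 1.40 to 8.71 TPM for mesonephros, from 7.30 to 21.4 TPM for endothelium, from 11.5 to 26.4 TPM for leukocytes, from 9.35 to 33.5 TPM for mesenchyme and from 99.97 to 454 TPM for erythroid cells. The table lists 1 gonadal somatic, 1 mesonephric, 1 leukocyte, 1 hepatocyte and 2 erythroid markers at 0 in all 4 libraries. Fewer cells of a type and less RNA per cell cannot be told apart in bulk samples of this kind.

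The strongest structure among the E4.5 libraries was the pool number and not the sex. Across genes the libraries of pair 2 correlated at r = 0.974 and those of pair 1 at r = 0.918, whereas the male pools correlated at r = 0.886 and the female pools at r = 0.871. The median size of the difference between first and second pools was 0.82 on the log2(TPM + 1) scale, against 0.27 for the difference between the sexes. Between pools, 5181 of the 12204 genes (42.5%) differed in limma with Benjamini-Hochberg adjustment at an adjusted p under 0.05, 3593 of them higher in the first pools and 1588 higher in the second. With median-of-ratios scaling of the libraries the split turned to 2067 higher in the first pools and 2813 higher in the second, so that the direction of the pool difference depends on the scaling. What separates the pools was not tested.

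**Figure D1:**
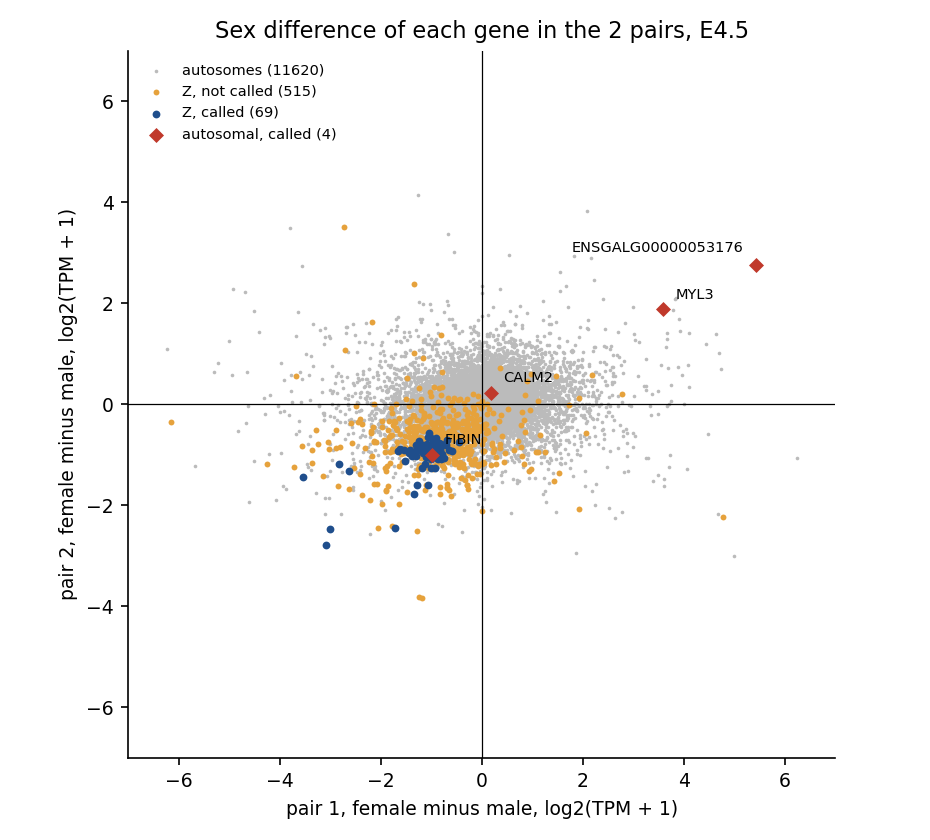
Female minus male difference of each gene on the log2(TPM + 1) scale in pair 1 (horizontal axis) and pair 2 (vertical axis), with autosomal genes in grey, Z-linked genes in orange, the 69 called Z-linked genes in blue and the 4 called autosomal genes as red diamonds. Autosomal genes form a cloud around 0 that is wider along pair 1, and most Z-linked genes lie in the lower left, below 0 in both pairs.

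Within pairs, the 2 estimates of the sex difference were related on the Z chromosome by direction and hardly at all by size. Of the 584 Z-linked genes, 481 (82.4%) were lower in the female pool of both pairs, whereas 22.9% of autosomal genes were lower in both. Only 10 Z-linked genes (1.71%) were higher in the female pool of both pairs, against 31.3% of autosomal genes. The correlation between pair 1 and pair 2, which share no library, was r = 0.087 across autosomal genes and r = 0.092 across Z-linked genes. On autosomes 5198 genes (44.7%) had opposite signs in the pairs, and on Z 88 (15.1%). The spread was wider in pair 1, with an SD of the autosomal differences of 0.872 against 0.487 in pair 2.

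Large differences seen in pair 1 were rarely repeated in pair 2. In pair 1, 207 genes were higher in the female pool by 2 or more on the log2 scale, of which 36 were higher by at least 1 in pair 2 and 88 were lower there. In the other direction 307 genes were lower in the female pool of pair 1 by 2 or more, of which 60 were lower by at least 1 in pair 2 and 119 were higher there. A difference of 2 or more in the same direction in both pairs was found for 7 genes higher in females and 6 genes lower in females.

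Genes that passed the test lay almost wholly on Z and were higher in males. A total of 73 of the 12204 genes (0.598%) differed between the sexes with the pool number as a block (limma, adjusted p under 0.05), and 70 of them (0.574%) were higher in males. Of these, 69 were Z-linked, which is 11.8% of the Z-linked genes, and 1 was autosomal. The genes higher in females numbered 3 (0.0246%), all autosomal, and of the 34 Z-linked genes with a higher mean in females 0 were called by limma, 0 by limma-voom on the reads recovered from the TPM values, and 0 had an unadjusted p under 0.05. The counts on autosomes were 1 higher in males (0.00861%) and 3 higher in females (0.0258%). The unadjusted p was under 0.05 for 1212 of the 12204 genes (9.93%), for 318 of the Z-linked genes (54.5%) and for 894 of the autosomal genes (7.69%).

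On simulated data this test also called more unchanged genes than its nominal rate allows, so the calls may include more false ones than the threshold implies. The counts also rest on the block. Without it limma called 0 genes outside W, and 81 (0.664%) had an unadjusted p under 0.05, because the difference between pools then counted as spread. With either pair left out, and the spread taken from the other stages, 0 to 5 genes were called higher in males and 1 to 3 higher in females, and a comparison of 2 against 2 libraries cannot go below p = 0.333 in an exact two-sided permutation test. limma-voom called 65 Z-linked genes (11.1%), 61 of which the main test also called, and raising the filter to a mean of 5 TPM gave 177 Z-linked genes and 28 and 56 autosomal genes higher in males and in females. When all 12 libraries were fitted together, 6 Z-linked genes passed the threshold.

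On the scales used here, the Z chromosome as a whole was lower in female gPGCs by somewhat less than the gene dose of 1 to 2. The summed level of Z-linked genes was 67080 and 69650 TPM in the male pools and 35845 and 38488 TPM in the female pools. The male pool was thus 1.87-fold higher in pair 1 and 1.81-fold higher in pair 2, and the sexes did not overlap. The median Z-linked difference was -0.83 in pair 1 and -0.75 in pair 2 on the log2(TPM + 1) scale, while the median autosomal difference was 0.05 and 0.04. Averaged over pairs the Z-linked median was -0.78, which is 1.72-fold higher in males, and the autosomal median was 0.05. Taken less the autosomal median, the Z-linked median was -0.83, and the 1 TPM added before the logarithm draws low genes toward 0. Among the 29 autosomes with 50 or more genes, medians ranged from -0.05 on chromosome 25 to 0.11 on chromosome 21, each nearer to 0 than Z.

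**Figure D2:**
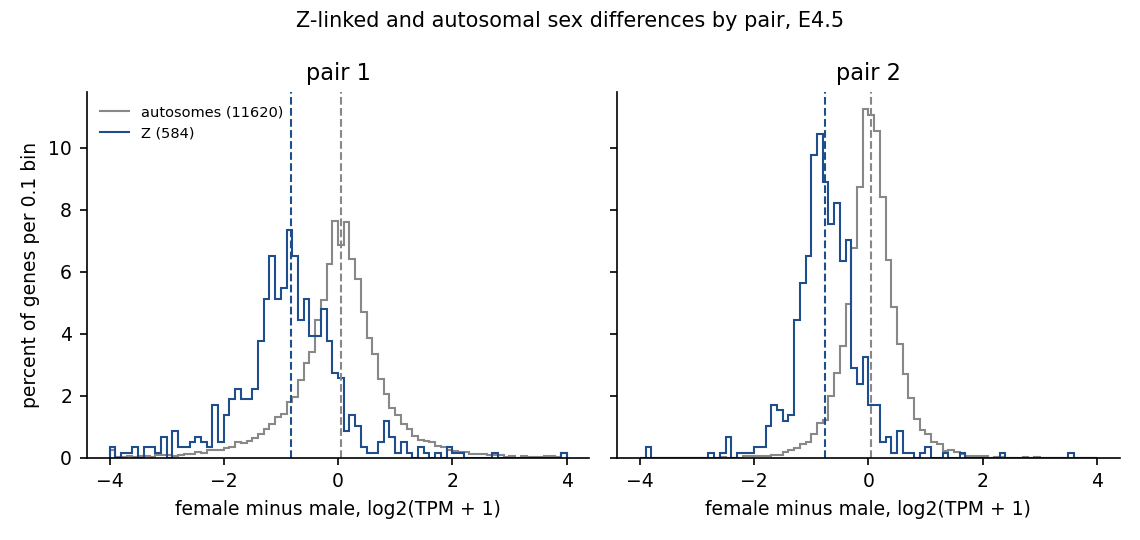
Distribution of the female minus male difference on the log2(TPM + 1) scale, as the percent of genes per bin, for the 584 Z-linked genes (blue) and 11620 autosomal genes (grey) in pair 1 and pair 2, with dashed lines at the medians and values beyond the axis added to the end bins. The Z-linked distribution is shifted to the left in both pairs, with medians of -0.83 and -0.75 against 0.05 and 0.04.

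The shift ran along the whole chromosome. In 10-Mb windows of Z the median difference lay between -0.69 and -0.92, and each window held 3 to 15 of the called genes. Both male libraries lay above both female libraries in 292 of the 584 Z-linked genes (50%) and both female above both male in 5 (0.856%), against 7.14% and 8.18% of autosomal genes and 9.19% and 7.83% of all genes outside W.

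The Z-linked difference was tighter and larger in abundant genes. In the 146 Z-linked genes of lowest mean level, the median difference was -0.60 with an SD across genes of 0.718, and 98 of 146 genes were lower in females in both pairs. In the 146 of highest mean level, above 52.8 TPM, the median was -0.91 with an SD of 0.267, and 145 of 146 genes were lower in females in both pairs. The called genes followed the level: 62 of the 69 were among the 146 highest, 6 among the next 146, 0 in the group below and 1 among the 146 lowest. Adding 1 TPM before the logarithm draws low genes toward 0, and with 0.1 TPM added the Z-linked median was -0.88. The genes of lower level that were not called therefore include many at a similar difference, and a missing call is not a sign of equal expression.

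**Figure D3:**
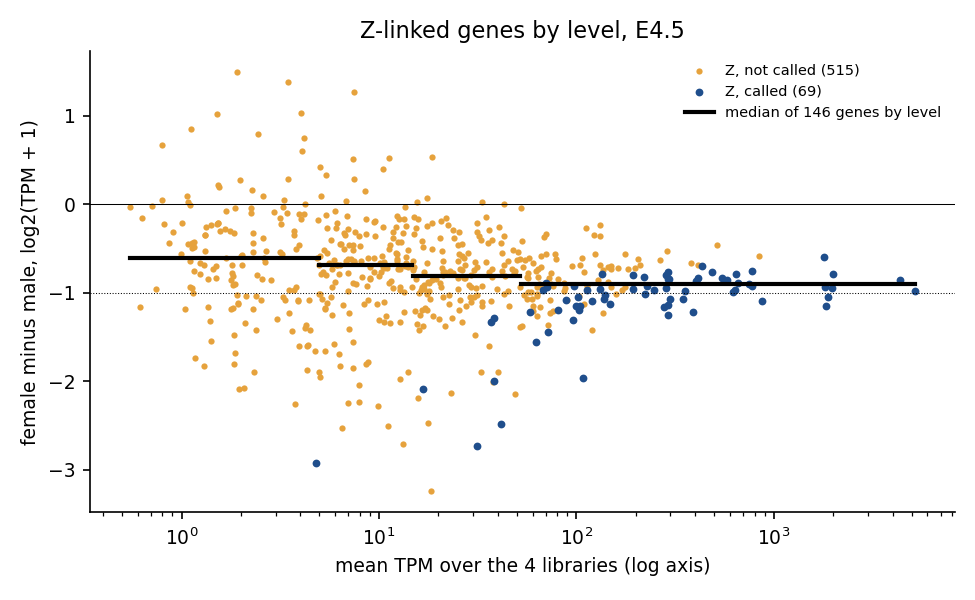
Female minus male difference on the log2(TPM + 1) scale (vertical axis) against the mean TPM over the 4 libraries (horizontal, log axis) for 584 Z-linked genes, with the 69 called genes in blue and black bars at the medians of 4 equal groups by level. The spread narrows toward the right, where the median of the highest group is -0.91.

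Among the called Z-linked genes of lowest adjusted p were genes of the ribosome and of the mitochondrion. *RPS6*, a protein of the small ribosomal subunit at chrZ:33736390-33740880 in GRCg6a, was at 2335 and 2766 TPM in the male pools and 1159 and 1308 TPM in the female pools. Both male values were about 2-fold above the female value of their pair, and the groups did not overlap. Its difference was -1.04 ± 0.09 (SE) on the log2 scale, with an adjusted p of 0.000708 in limma. It lost its call without the block and with either pair left out, and a difference of at least 3 leaves no Z-linked gene. *TXN*, which encodes thioredoxin, a reducing protein of the cytosol, was at 7072 and 6795 TPM in males and 3144 and 3892 TPM in females, with a difference of -0.99 (adjusted p = 0.000913, limma). *COX7C*, a subunit of cytochrome c oxidase, was at 6515 and 4765 TPM in males and 3697 and 2547 TPM in females. Both male libraries of *COX7C* and of *TXN* lay above both female libraries, and the difference of *COX7C* was -0.86 (adjusted p = 0.00120, limma).

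The calls among ribosomal and respiratory genes all fell on Z. Of 70 tested cytosolic ribosomal protein genes, 4 were Z-linked and all 4 were called higher in males, namely *RPS6*, *RPS23*, *RPL37* and *RPL17*, while 0 of the 66 on autosomes were called, and the median of all 70 was 0.01. *RPS23*, near the decoding centre of the small subunit, was at 3408 and 1762 TPM in males and 1797 and 903 TPM in females, with the second male pool just under the first female pool. Of 64 nuclear-encoded oxidative phosphorylation genes, 4 were Z-linked and all 4 were called higher in males, *COX7C*, *NDUFS4*, *ATP5I* and *ATP5A1Z*, with a median of -0.04 over the 64. *NDUFS4*, a subunit of complex I, was at 711 and 950 TPM in males and 363 and 469 TPM in females. limma-voom called 4 genes in each list. The share called was 11.8% over all Z-linked genes, 42.5% among the 146 Z-linked genes of highest level and 0.0344% over all autosomal genes. The median over all 12204 genes was 0.03, and the lists were drawn up with earlier results of these data known.

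The largest called differences, named for their size, were well over 2-fold. *SLC24A2*, a potassium-dependent sodium/calcium exchanger gene at chrZ:33788816-33891677, was at 10.04 and 8.47 TPM in males and 0.31 and 0.38 TPM in females. The male libraries held 106 and 130 reads and the female libraries 3 and 6, and the sexes were far apart in both pairs. Its difference was -2.93 ± 0.45 (SE), 7.61-fold higher in males on the TPM + 1 scale, with an adjusted p of 0.0215 in limma and 0.074 in limma-voom. At the other stages its difference was smaller, -1.11 at E2.5 and -1.41 at E6.5, and neither passed the test there. The change of the difference between stages was not called for *SLC24A2*.

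*CCDC125* was at 39.7 and 69.4 TPM in males and 4.08 and 11.8 TPM in females, a difference of -2.73 (adjusted p = 0.0106, limma). *SLC38A9*, a lysosomal amino acid transporter, was at 33.8 and 94.9 TPM in males and 2.00 and 34.5 TPM in females. Its sexes overlapped because the second female pool exceeded the first male pool, and the size of the difference was uneven, -3.54 in pair 1 and -1.43 in pair 2. *CFC1*, a Nodal co-receptor of the EGF-CFC family, was at 135 and 196 TPM in males and 21.1 and 77.9 TPM in females, with a difference of -1.97 (adjusted p = 0.0176, limma). *FAM189A2* was at 34.7 and 19.6 TPM in males and 9.82 and 2.74 TPM in females, and *CBWD1* at 42.4 and 74.2 TPM in males and 5.18 and 32.2 TPM in females. Of these genes *CCDC125* and *CFC1* kept an adjusted p under 0.05 in limma-voom, at 0.0453 and 0.0416, while *SLC38A9*, *FAM189A2* and *CBWD1* did not, at 0.117, 0.0729 and 0.139.

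The other genes among the 12 largest called differences on Z were smaller in size. *GADD45G*, a stress-inducible regulator of growth arrest, was at 77.4 and 110 TPM in males and 30.2 and 31.4 TPM in females, a difference of -1.56 (adjusted p = 0.0279, limma). *ALDH7A1*, an enzyme of lysine breakdown, was at 100 and 112 TPM in males and 40.6 and 36.2 TPM in females, a difference of -1.44. Its difference was -1.51 at E2.5 and -0.26 at E6.5. *PLPP1*, a lipid phosphate phosphatase, was at 134 and 139 TPM in males and 46.4 and 63.5 TPM in females. *C9orf72* and *MOCS2*, the latter a subunit of molybdopterin synthase, differed by -1.29 and -1.25. *C9orf72* did not pass in limma-voom, at an adjusted p of 0.0637, while the other genes of this paragraph did. In the genes of this paragraph both male libraries lay above both female libraries.

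**Figure D4:**
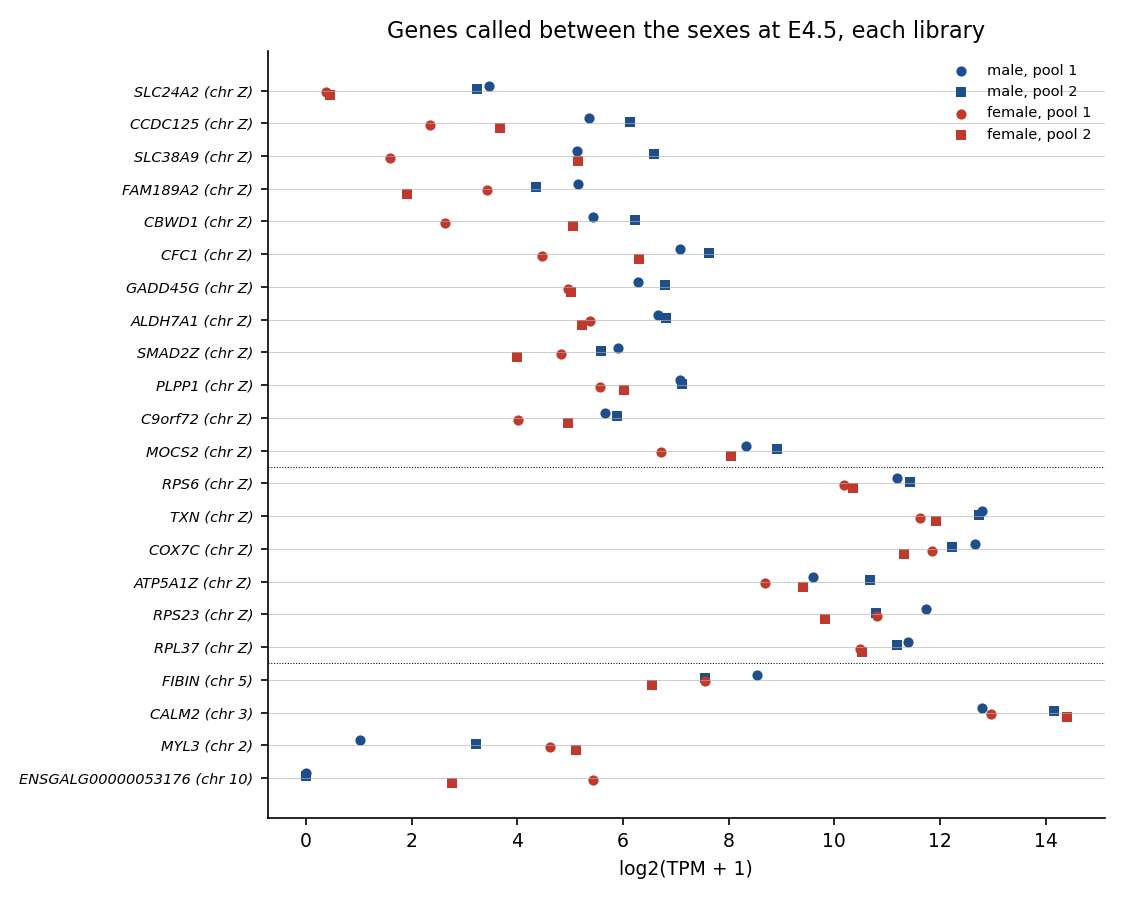
Level of each E4.5 library on the log2(TPM + 1) scale for the 12 called Z-linked genes with the largest difference, the 6 called Z-linked genes with the lowest adjusted p, and the 4 called autosomal genes, separated by dotted lines, with males in blue, females in red, circles for the first pools and squares for the second. Each male symbol lies to the right of the female symbol of the same shape in all Z-linked genes drawn, while *CALM2* shows a shift between pools far larger than that between the sexes.

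Over all 69 called Z-linked genes, the median difference was -0.99, with a range from -2.93 to -0.60, and 62 lay between -1.5 and -0.5. All 69 were lower in the female pool of both pairs, which was close to given because a paired test on these values picked them. The male and female libraries did not overlap in 47. Both male libraries lay above both female ones in 50% of all Z-linked genes and 9.19% of all genes outside W. Of the 69, 44 also differed between first and second pools, as did 42.5% of all genes outside W. Exons of 5 of the 73 called genes overlapped another annotated gene, *RPL17*, *PLPP1*, *MRPS36*, *SRP19* and *AP3S1*, and whether reads were counted by strand is not given in the sources used here.

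Z-linked genes with a surviving copy on W can have reads that fit both copies. Such reads were dropped in either sex, because only uniquely mapped reads were counted, so the values of these genes are uncertain. Of 11 such genes tested, 5 were called higher in males, *ATP5A1Z*, *SPIN1Z*, *VCP*, *RPL17* and *SUB1*, and 10 were lower in the female pool of both pairs, with a median of -0.79. Over all Z-linked genes 11.8% were called and 82.4% were lower in both pairs. *ATP5A1Z*, the alpha subunit of mitochondrial ATP synthase, was at 776 and 1634 TPM in males and 410 and 679 TPM in females, a difference of -1.09 (adjusted p = 0.00143, limma). *SPIN1Z*, a reader of histone methylation, was at 152 and 39.9 TPM in males and 71.5 and 22.7 TPM in females, so that the sexes overlapped although each pair had the male higher. *SMAD2Z*, a transducer of activin and Nodal signals that is labelled as a Z copy but was not on the list, was at 58.9 and 46.9 TPM in males and 27.5 and 14.9 TPM in females, with a difference of -1.33 (adjusted p = 0.0311, limma).

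The genes called at E4.5 were examined at the other stages, in libraries that played no part in the call. All 69 were tested in both. At E2.5, 68 were lower in the female pool of both pairs, and at E6.5 all 69 were. This compares with 91.3% and 85.3% of all Z-linked genes and with 46.1% and 34.6% of autosomal genes tested at both stages. At E2.5, 7 of the 69 (10.1%) were called higher in males, against 5.05% of all those Z-linked genes, and at E6.5, 11 (15.9%), against 8.99%. The 69 were mostly abundant genes, with 62 among the 146 Z-linked genes of highest level at E4.5. The shares of all Z-linked genes given here are not matched for level, and the part of level was not tested. Of all genes outside W, 0.332% were called higher in males in the E2.5 libraries and 0.7% in those of E6.5. Less the autosomal median, the Z-linked median was -0.83 at E4.5, against -0.80 in the E2.5 and -0.81 in the E6.5 libraries. In the E2.5 libraries the 69 genes stood at -0.60 on this measure, nearer to 0 than the -0.83 of the Z-linked genes not called at E4.5. This gap lay mainly in pair 1 of E2.5, with -0.29 against -0.78, while pair 2 had -0.83 against -0.86.

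A difference between the sexes that changed with stage was not detected by the main test. With all 12 libraries in limma, 0 of 14122 genes outside W changed their sex difference between E2.5 and E4.5, and 1161 (8.22%) had an unadjusted p under 0.05. Between E4.5 and E6.5 the count was again 0, with 987 genes (6.99%) at an unadjusted p under 0.05 and a lowest adjusted p of 0.0507. For the latter step limma-voom called 57 genes and limma with median-of-ratios scaling 123. At E2.5 the autosomal median itself was -0.32, with -0.57 in pair 1 and -0.05 in pair 2. Changes from that stage are relative to that shift.

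On autosomes 4 of 11620 genes (0.0344%) were called. *FIBIN*, a secreted protein gene known from the budding fin of zebrafish, at chr5:3728374-3730202, was at 371 and 187 TPM in males and 187 and 93.1 TPM in females. The second male pool and the first female pool were level, and the male pool was about 2-fold higher in each pair. Its difference was -0.99 ± 0.15 (SE), with an adjusted p of 0.0212 in limma and 0.0229 in limma-voom, and of 0.258 with all 12 libraries in the fit. At E2.5 it was at 364 and 204 TPM in males and 148 and 165 TPM in females (difference -0.80, adjusted p = 0.251, limma). At E6.5 it was at 218 and 221 TPM in males and 85.2 and 77.0 TPM in females, a difference of -1.43 that passed the test in those libraries (adjusted p = 0.0294, limma).

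*MYL3*, a myosin light chain of heart and slow muscle at chr2:3512686-3549349, was at 1.04 and 8.32 TPM in males and 23.6 and 33.4 TPM in females. Both female libraries lay above both male libraries, the difference was 2.74 ± 0.42 (SE), 6.67-fold higher in females on the TPM + 1 scale, and the adjusted p was 0.0212 in limma and 0.101 in limma-voom. Its difference was 0.56 at E2.5 and 1.37 at E6.5, and neither passed the test. *CALM2*, one of the genes for calmodulin, was at 7078 and 18386 TPM in males and 8046 and 21588 TPM in females. The second pools were more than 2-fold above the first, the sexes overlapped, and within pairs the female excess was 0.19 and 0.23 on the log2 scale (mean 0.21 ± 0.04 SE, adjusted p = 0.0377 in limma and 0.00859 in limma-voom), with a value of 0.01 at E6.5. The third gene higher in females, ENSGALG00000053176, is a miRNA gene of 50 bases with 0 reads in both male pools and 9 and 2 in the female pools. Its female mean was at least 2.19-fold above a floor of 3 reads per male library. That bound rests on female pool 1, because the 2 reads of female pool 2 lie under the floor. The gene was called by limma (adjusted p = 0.0461) and not by limma-voom (adjusted p = 0.602). At E2.5 and E6.5 only the second male pool had reads on it, at 2.57 and 5.15 TPM. With 0.1 TPM added before the logarithm, limma called none of the genes higher in females.

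Of 14 tested markers of germ cell identity, 0 were called between the sexes by limma or limma-voom, and 1 had an unadjusted p under 0.05. Over all 12204 genes outside W, limma called 0.598%, and 9.93% had an unadjusted p under 0.05. *DAZL*, an RNA-binding protein of germ cells, was at 1621 and 2412 TPM in males and 1699 and 2525 TPM in females, a difference of 0.07 within each pair. *DDX4*, the chicken vasa homologue and a Z-linked gene, was at 378 and 294 TPM in males and 320 and 165 TPM in females (difference -0.53, adjusted p = 0.229, limma). *NANOG*, a pluripotency factor, was at 160 and 505 TPM in males and 122 and 390 TPM in females (difference -0.38, adjusted p = 0.500, limma). The median over the 14 PGC markers was 0.01, 4 were higher in the female and 5 in the male pool of both pairs, and 11 of the 14 differed between first and second pools, as did 42.5% of all genes, with an overall direction that turned with the scaling. *LIN28B* and *DND1*, both RNA-binding regulators of early germ cells, stood out between pools, at 75.7 and 95.6 TPM in the first pools against 7.77 and 9.68 TPM in the second for *LIN28B*, and at 535 and 679 TPM against 157 and 116 TPM for *DND1*.

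Of 13 tested genes of gonadal sex determination and steroid synthesis, 0 were called by limma or limma-voom and 3 had an unadjusted p under 0.05. The shares over all genes outside W were 0.598% called by limma and 9.93% at an unadjusted p under 0.05. *DMRT1* was at 53.3 and 9.20 TPM in males and 29.8 and 8.49 TPM in females. The male pool was higher in both pairs, by 0.82 and 0.10 on the log2 scale, the sexes overlapped, and the mean difference of -0.46 did not pass (adjusted p = 0.700, limma). *SOX9*, which acts downstream in the testis pathway, was at 3.89 and 1.22 TPM in males and 3.45 and 0.31 TPM in females. *AMH* and *FOXL2* did not reach 1 TPM in 2 libraries and *CYP19A1*, the gene for aromatase, is listed at 0 in all 4. *CTNNB1*, beta-catenin, was at 54.6 and 20.1 TPM in males and 98.3 and 29.9 TPM in females (difference 0.69, adjusted p = 0.252, limma).

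Of 14 tested retinoic acid genes, 0 were called by limma or limma-voom, 1 had an unadjusted p under 0.05, and the median was 0.03. Across all genes outside W, limma called 0.598%, and 9.93% had an unadjusted p under 0.05. The 14 are all autosomal, and on autosomes alone these shares were 0.0344% and 7.69%. *STRA8*, a retinoic acid target needed for entry into meiosis, was at 7.37 and 28.7 TPM in males and 7.16 and 28.9 TPM in females, so that the sexes coincided and the second pools were higher. *RARB*, a retinoic acid receptor, was at 16.9 and 28.0 TPM in males and 18.8 and 26.6 TPM in females. *CYP26A1*, which degrades retinoic acid, was at 58.6 and 29.5 TPM in males and 44.6 and 19.6 TPM in females.

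The 15 tested meiosis genes had a median of 0.67, with 10 higher in the female pool of both pairs and 0 lower in both, but 0 were called by limma or limma-voom and 4 had an unadjusted p under 0.05. *HORMAD1*, a protein of the meiotic chromosome axis, was at 46.4 and 28.1 TPM in males and 71.9 and 47.1 TPM in females, which left both female libraries above both male ones (difference 0.67, adjusted p = 0.338, limma). *MEIOB*, a single-strand DNA-binding protein of meiotic recombination, had the largest difference and is named because its values had been seen, at 0 and 1.07 TPM in males and 14.3 and 4.67 TPM in females (adjusted p = 0.131, limma). *SPO11*, which makes the meiotic DNA breaks and was likewise chosen after its values were seen, was at 0.30 and 2.39 TPM in males and 7.04 and 3.63 TPM in females. The more abundant members *MND1*, *PSMC3IP* and *MSH4* differed by 0.10, 0.07 and 0.19. Across all 12204 genes 29.9% were higher in the female pool of both pairs, 25.8% were lower in both, and the median was 0.03. Of those genes limma called 0.598%, and 9.93% had an unadjusted p under 0.05. The 15 are all autosomal, and on autosomes alone these shares were 0.0344% and 7.69%. There 31.3% were higher in the female pool of both pairs and 22.9% lower in both.

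Of 7 genes that the study followed by RT-qPCR, most of them known from liver and kidney metabolism, 6 were highest in the first male pool. By test, limma and limma-voom called 0 of the 7 at E4.5, and 3 had an unadjusted p under 0.05. The study chose them for their E6.5 levels in this series. For all genes outside W at E4.5, 0.598% were called by limma and 9.93% had an unadjusted p under 0.05. The 7 are all autosomal, and on autosomes alone these shares were 0.0344% and 7.69%. *RGN*, regucalcin, a calcium-binding protein, was at 279 and 43.7 TPM in males and 30.1 and 62.0 TPM in females. *APOA1*, the main apolipoprotein of high-density lipoprotein, was at 73.3 and 4.79 TPM in males and 3.97 and 7.10 TPM in females. In both genes male pool 1 was more than 4-fold above the next library, the pairs differed in sign, and the adjusted p in limma was 0.527 for *RGN* and 0.521 for *APOA1*.

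The median over the 7 genes was -2.63 in pair 1 and 0.25 in pair 2. *UPB1*, beta-ureidopropionase, *HPGDS*, a prostaglandin D synthase, and *UGT1A1*, a glucuronosyltransferase, showed the same peak in male pool 1, at 14.8, 14.1 and 6.46 TPM. *GATM*, a creatine synthesis enzyme, was at 14.1 and 7.76 TPM in males and 5.28 and 4.54 TPM in females, and *CYB5A*, cytochrome b5, was at 68.1 to 110 TPM in all 4. The summed level of 9 hepatocyte markers was 37.4 TPM in male pool 1 against 7.40 TPM in male pool 2 and 8.43 and 8.47 TPM in the female pools, and that of mesonephros markers was 8.71 TPM against 1.40, 3.82 and 1.84 TPM. Among them *TTR*, transthyretin, was at 9.09, 1.21, 0 and 2.74 TPM and *ALB*, albumin, at 1.74, 0.63, 0 and 1.35 TPM in the same order. Their part in the result was not tested.

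At E6.5 all 7 genes were called higher in females in limma, as were 2.16% of the genes outside W. That outcome was largely set in advance, because the study chose the genes from these same E6.5 libraries. *RGN* was then at 45.9 and 52.5 TPM in males and 1181 and 6262 TPM in females, so that the E6.5 male libraries were at the level of male pool 2 at E4.5. The difference of *RGN* was 5.76 at E6.5, against -1.34 at E4.5. The adjusted p of that change was 0.0523 in the main limma fit and 0.0212 in limma-voom.

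**Figure D5:**
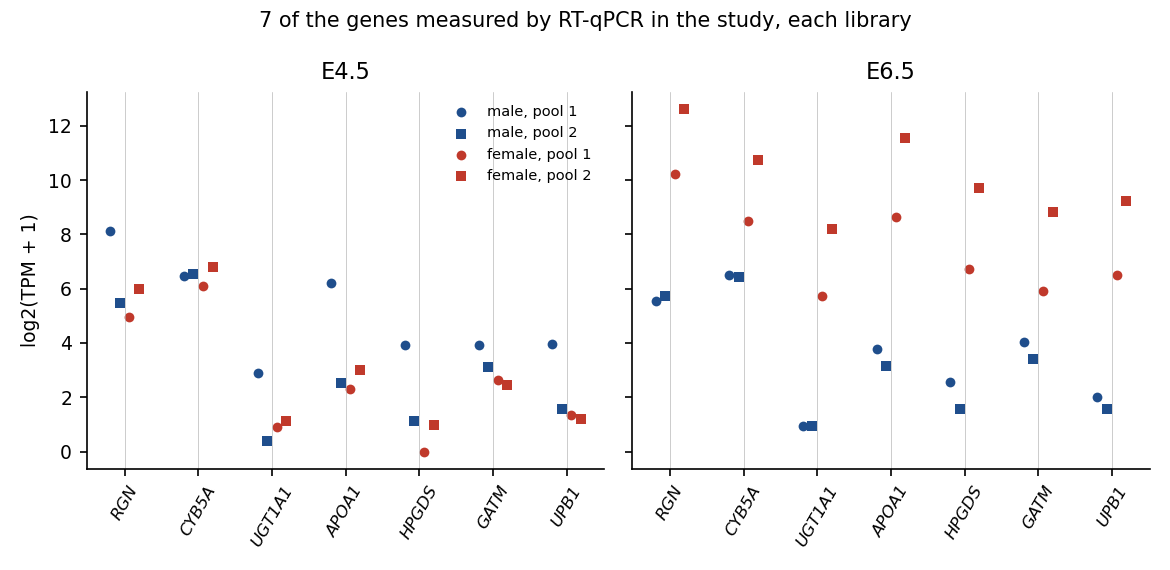
Level of 7 genes on the log2(TPM + 1) scale in each library at E4.5 (left) and E6.5 (right), with males in blue, females in red, circles for the first pools and squares for the second. At E4.5 the first male pool stands highest for 6 of the 7 genes, and at E6.5 both female pools stand above both male pools for all 7.

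In other gene groups few members were called. The counts called by limma and by limma-voom were 0 of 13 glycolysis genes, 0 of 22 genes of germ cell migration and signalling, 0 of 24 genes of the cell cycle and DNA replication, 0 of 15 genes of DNA methylation and histone modification and 0 of 9 lipid transport genes. In the same order 1, 3, 3, 1 and 2 had an unadjusted p under 0.05, and the medians were -0.08, -0.14, -0.05, 0.06 and -0.59. Over all genes outside W limma called 0.598%, and 9.93% had an unadjusted p under 0.05. The glycolysis, germ cell migration and cell cycle lists held only autosomal genes, and on autosomes alone these shares were 0.0344% and 7.69%. With so small a share called, lists of this size say little by holding 0 calls. *CXCR4*, the chemokine receptor that guides PGCs, was at 97.5 and 291 TPM in males and 47.7 and 231 TPM in females (difference -0.67, adjusted p = 0.260, limma), lower in the female of both pairs. Of 16 immediate early and stress genes only *DNAJA1*, a Z-linked co-chaperone of HSP70, was called, at 805 and 405 TPM in males and 533 and 212 TPM in females. *HSPA8*, its autosomal partner, was at 1012 and 1424 TPM in males and 797 and 1197 TPM in females (adjusted p = 0.131, limma). The globins crossed between pairs: *HBZ* was at 46.5 and 87.9 TPM in males and 20.6 and 129 TPM in females, and the erythroid markers had a median of -0.73 in pair 1 and 0.78 in pair 2.

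The 10 Z-linked genes that were higher in the female pool of both pairs were mostly of low level, and 0 had an unadjusted p under 0.05. *NNT*, the mitochondrial transhydrogenase, was level between the sexes, at 7.86 and 5.53 TPM in males and 7.97 and 5.82 TPM in females, and its difference was -1.65 at E2.5 and -0.21 at E6.5. *GOLM1*, a Golgi membrane protein, was at 10.3 and 7.07 TPM in males and 19.4 and 8.16 TPM in females, with differences of -1.14 and -0.34 at the other stages. *PMAIP1*, a pro-apoptotic BH3 protein, was at 0 and 3.94 TPM in males and 3.54 and 6.37 TPM in females. These genes were picked for their direction, so that their values are a description.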

How the data were processed

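RNA of sorted PGCs was amplified with a low-input SMART-seq kit and sequenced in 12 libraries, 2 pools per sex at 3 stages, with reads on genes between 7185031 and 13749166 per library. According to the methods and the submitters' processing notes, reads were checked with FastQC 0.11.9, trimmed with Trimmomatic 0.39 and with Trim Galore 0.6.6 and cutadapt 3.1, mapped to GRCg6a with STAR 2.7.3a, and uniquely mapped reads were counted per gene with featureCounts 2.0.1. The authors deposited TPM per gene and library, and how TPM was made from counts is not given in the sources used here. TPM multiplied by gene length gave whole multiples of 1 step per library for 100% of values up to 1000 reads (tolerance 0.01 reads), which gave reads per gene. Reads are amplified, so that floors of 3 reads cover counting error only.

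The main test was limma 3.58.1 in R 4.3.3 on log2(TPM + 1), female minus male, with the pool number as a block, a variance trend on mean TPM times length, and Benjamini-Hochberg adjustment over 12229 genes, 25 W-linked genes included. A gene was called at an adjusted p under 0.05. The fold is on the TPM + 1 scale and understates low genes. The test was tried on simulated data, in which it let through more unchanged genes than the nominal rate. The fit without the block recovered none of the changed genes there. Both sexes of a pool number were simulated from the same mean, so that outcome was set by the design of the simulation. It says nothing on whether the real pools were paired. P-values and SEs rest mostly on the variance trend shared across genes, because 2 pairs tell little of a gene's own spread. How far the within-pair differences of a gene disagree counts for less. *SLC38A9*, at -3.54 and -1.43 in the pairs, had an SE of 0.42 and was called. A small p is thus no measure of agreement between the pairs. The difference between first and second pools is taken out by the block. Same-numbered pools deviated together at E4.5 (r = 0.670 across genes of deviations from the sex mean, 0.236 at E2.5 and -0.129 at E6.5). With 2 pairs and no label on pairing, this is a hint from the data, and the block is in the test because pools of the same number were to be compared.

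The genes named were the called genes of largest difference on Z and elsewhere (12 per direction and class). Added were the RT-qPCR genes and a set of known sex and germ cell genes. From each list came the called and then most abundant members (up to 4). The last rule took genes of mean 5 TPM or more with a large difference in the same direction in both pairs, called or not. The uncalled genes picked by that rule are not described here. Other genes were named after their values were seen. The genes examined and the gene lists were chosen with earlier results of these data known. *HEMGN* was not matched by name and is not analysed here, and 1 of the RT-qPCR genes is not reported here. Of the 24356 genes, 10821 carry no name. Alternatives were no block, 0.1 TPM added, no filter, a mean of 5 TPM or more, median-of-ratios scaling, the usual variance trend, limma-voom on recovered reads, all 12 libraries, a log2 difference of at least 1 or 3, and each pair left out.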

Additional observations from a re-analysis of the deposited data

Results flagged for a closer look

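Among the genes named, 10 had a sex difference on the log2(TPM + 1) scale that changed between E4.5 and E6.5 by the test of the change itself in limma-voom or in limma with median-of-ratios scaling, and none of them in limma as used above. *RGN*, *CYB5A*, *UGT1A1*, *APOA1*, *HPGDS*, *GATM* and *UPB1* were named because the study chose them as female-biased at E6.5 in this series. Their change toward E6.5 was therefore largely set by that choice, and its p-values are no independent support. The adjusted p-values follow in the order limma, limma-voom and scaled limma. *RGN* differed by -1.34 at E4.5 and by 5.76 at E6.5 (adjusted p of the change 0.0523, 0.0212 and 0.00967). *CYB5A* differed by -0.0433 at E4.5 and by 3.14 at E6.5 (adjusted p of the change 0.0958, 0.0487 and 0.0439). *UGT1A1* differed by -0.62 at E4.5 and by 6.03 at E6.5 (adjusted p of the change 0.0522, 0.0344 and 0.00945). *APOA1* differed by -1.71 at E4.5 and by 6.64 at E6.5 (adjusted p of the change 0.0645, 0.0237 and 0.0133). *HPGDS* differed by -2.03 at E4.5 and by 6.13 at E6.5 (adjusted p of the change 0.0584, 0.0515 and 0.0121). *GATM* differed by -0.96 at E4.5 and by 3.64 at E6.5 (adjusted p of the change 0.0974, 0.0675 and 0.0295). *UPB1* differed by -1.51 at E4.5 and by 6.08 at E6.5 (adjusted p of the change 0.0507, 0.0237 and 0.00822). *FST* differed by -0.18 at E4.5 and by -3.94 at E6.5 (adjusted p of the change 0.0822, 0.0698 and 0.0245). *FGB* differed by -0.49 at E4.5 and by 3.46 at E6.5 (adjusted p of the change 0.125, 0.0615 and 0.029). *TTR* differed by -1.29 at E4.5 and by 6.39 at E6.5 (adjusted p of the change 0.084, 0.0731 and 0.0234). All of these except *FST* were higher in females at E6.5, in pools other than those measured at E4.5. The E4.5 means hide pairs of opposite sign, given here in pair order, for *RGN* (-3.17 and 0.50), *CYB5A* (-0.34 and 0.25) and *UGT1A1* (-1.99 and 0.75). So they do for *APOA1* (-3.90 and 0.48), *TTR* (-3.34 and 0.76) and *FST* (0.95 and -1.31). Both pairs were negative at E4.5 for *HPGDS*, *GATM*, *UPB1* and *FGB*.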

How the results depend on the processing

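No gene named as called changed direction under any alternative. No replicate block left 0 genes called higher in males, 0 higher in females, 0 Z-linked genes, 0 autosomal genes in either direction and 0 list members, against 70, 3, 69, 1 and 3, and 13. With 0.1 TPM added the counts were 29 higher in males (28 Z-linked) and 0 higher in females, and the Z-linked median was -0.88 against -0.78. With no filter they were 107 higher in males and 16 higher in females (autosomes 11 and 16) and the Z-linked median was -0.60. A mean of 5 TPM or more gave 205 and 56, with 177 Z-linked genes, 28 and 56 autosomal genes and 28 list members. The usual trend gave 31 (30 Z-linked) and 0, and 8 list members. All 12 libraries gave 6 (6 Z-linked) and 1, with 0 autosomal genes higher in males and 3 list members. limma-voom gave 1 gene higher in females, on an autosome, and a Z-linked median of -0.90. A log2 difference of at least 1 left 32 higher in males, and of at least 3, 0 and 1. Leaving out either pair gave 0 to 5 genes higher in males, 1 to 3 higher in females, 0 to 1 Z-linked genes, 0 to 4 autosomal genes higher in males and 1 to 3 higher in females, and 0 list members. The sex difference changed between E4.5 and E6.5 in 123 genes with median-of-ratios scaling and 57 in limma-voom, against 0. The cause was not tested. Depth limits the low genes: 3 reads on 1000 bases were worth 0.43 to 0.70 TPM.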

Other observations

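Several autosomal genes did not pass the test but came near the threshold, and are given as values, chosen after they were seen. *MARCHF4*, a membrane ubiquitin ligase, was at 24.3 and 26.3 TPM in males and 2.59 and 7.86 TPM in females (adjusted p = 0.0678, limma), and its difference was -0.94 at E2.5 and -2.14 at E6.5. *SMOC2*, a secreted calcium-binding matrix protein, was at 18.9 and 19.0 TPM in males and 4.25 and 3.69 TPM in females (adjusted p = 0.0695, limma), with differences of -1.47 and -1.11 at the other stages. *HTRA1*, a secreted serine protease, was at 542 and 268 TPM in males and 331 and 188 TPM in females (adjusted p = 0.0752, limma) and differed by -0.67 and -1.51. *SIX3*, a homeobox gene of the forebrain and eye, was at 1.09 and 1.62 TPM in males and 30.4 and 7.48 TPM in females (adjusted p = 0.0695, limma), and *AvBD14*, a beta-defensin, at 0 and 0.12 TPM in males and 13.4 and 3.77 TPM in females (adjusted p = 0.0618, limma).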
